A study of Rattus norvegicus with 10 samples.

Results

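The genes described here are the matrix metalloproteinases (Mmp), the tissue inhibitors of metalloproteinases (Timp), the secreted proteinases with thrombospondin repeats (Adamts) and the Adamts-like proteins (Adamtsl) of the rat. Every row of the count table whose symbol was one of these names followed by a number was taken, which gave 49 of 28522 symbols: 21 Mmp, 4 Timp, 19 Adamts and 5 Adamtsl genes. RNA-seq read counts were compared across 10 libraries from primary ventricular cells of neonatal rats aged 1 to 3 days, with no genetic alteration named in the labels. Cardiomyocytes were used without passage and fibroblasts from the same kind of isolation at passage 2, so cell type and passage cannot be told apart. Cells were isolated with enzymes and a Percoll gradient and plated in 10 cm dishes, and after 24 h all were moved to serum-free medium. The 4 groups were cardiomyocytes in serum-free medium alone (n = 3), cardiomyocytes with 10 µM phenylephrine (n = 3), fibroblasts in serum-free medium alone (n = 2) and fibroblasts with 10 µM phenylephrine (n = 2). Phenylephrine stimulates alpha1-adrenergic receptors, and cardiomyocytes in culture are often treated with it to make them grow in size. The time spent in phenylephrine is not given in the labels, nor whether replicates came from separate isolations, so p-values measure the spread between these libraries, which may be technical.

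Mmps are zinc proteinases that cut collagens, gelatins, elastin and many cell surface proteins, and they are made as inactive precursors that other proteinases activate. Timps bind active Mmps and block them, and Timp3 also blocks several Adam and Adamts enzymes. Adamts enzymes cut proteoglycans such as versican and aggrecan, remove the amino propeptides of fibrillar procollagens, or act on other matrix proteins, while Adamtsl proteins keep the ancillary domains but have no proteinase domain. In heart, cardiac fibroblasts are a main source of matrix and of the enzymes that turn it over, and the balance of Mmps and Timps is known to shift during cardiac remodelling.

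Library totals ran from 18048944 to 22794744 counts, so that the floor of 3 counts in a library stood between 0.128 and 0.166 CPM (counts scaled to library size and by trimmed mean of M values). The labels matched most defining markers. All 5 cardiomyocyte markers (Myh6, Tnnt2, Tnni3, Actn2, Ryr2) were higher in the cardiomyocytes in both media, with summed levels of 13058 to 17095 CPM against 496 to 578 CPM in fibroblasts. The fibroblast sum lay almost wholly in Tnnt2, at 551 and 565 CPM in serum-free and 505 and 475 CPM in phenylephrine fibroblasts. Of the 5 fibroblast markers, Tcf21, Pdgfra, Col1a1 and Postn were higher in fibroblasts in both media, while Dcn passed only with phenylephrine and stood at 226 ± 110.04 CPM in serum-free cardiomyocytes against 151 ± 25.4 CPM in serum-free fibroblasts (SD, n = 3 and 2). Cardiomyocyte cultures also held fibroblast markers, at 4945 to 10687 CPM summed against 29807 to 38597 CPM in fibroblasts, and leukocyte markers, at 119 to 180 CPM against 18.9 to 30.8 CPM. Of the 4 tested endothelial markers, Kdr, Cdh5 and Vwf were higher in cardiomyocyte cultures in both media and Tek was lower, with summed levels of 42.6 to 70.2 CPM against 20.9 to 38.6 CPM. Of the 4 epicardial markers, Msln, Upk1b and Wt1 were higher in both media and Upk3b was lower with phenylephrine, with summed levels of 89.9 to 126 CPM against 28.4 to 41.7 CPM. Of the 4 mural cell markers, Rgs5 and Cspg4 were higher and Pdgfrb lower in both media, and Myh11 was lower in serum-free medium. Serum-free cardiomyocyte replicate 2 and phenylephrine cardiomyocyte replicate 1 stood apart from their group mates. Their chi-square per degree of freedom against mates was 18.3 to 22.6, where the remaining cardiomyocyte pairs gave 4.20 and 2.99. The serum-free fibroblast pair gave 14.7, and the phenylephrine fibroblast pair gave 2.42. Phenylephrine replicate 1 held the highest value of its group for all 5 fibroblast markers, 7 of 10 leukocyte markers and 0 of 5 cardiomyocyte markers. Serum-free replicate 2 did so for 3 of 5 fibroblast markers, 6 of 10 leukocyte markers and 4 of 5 cardiomyocyte markers. Its summed fibroblast level of 8511 CPM against 4945 and 5250 CPM lay in Col1a1, since without that gene the sum was 621 CPM against 624 and 848 CPM, and its Dcn was the lowest, at 109 CPM against 242 and 328 CPM.

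Genes were tested with the quasi-likelihood test of edgeR on all 10 libraries and called where p, adjusted by Benjamini-Hochberg over the 13869 genes that passed a filter on low counts, was below 0.05. Differences are log2 ratios of fitted levels, given ± SE. Of the 49 genes, 36 passed the filter, 9 had counts but did not pass, and 4 had no count in any library (Mmp10, Mmp20, Mmp27, Mmp28). In serum-free medium 28 of the 36 differed between the cell types, 8 higher and 20 lower in cardiomyocytes. Of all genes tested, 66.1% were called in that comparison, 34.5% higher and 31.7% lower. With phenylephrine 32 of 36 differed, 9 higher and 23 lower, against 65.0% of all genes, 33.7% higher and 31.2% lower. The median log2 difference of the 36 was -0.69 in serum-free medium and -1.11 with phenylephrine, where all genes had medians of 0.018 and 0.016. The same 27 genes (27 of 28 and 27 of 32) passed in both media with the same direction, 20 lower and 7 higher in cardiomyocytes. Of all genes tested 54.5% did so, 25.9% lower and 28.6% higher, and 0.361% passed in opposite directions, among them none of the 36. In bulk RNA, fewer cells of a type and less RNA per cell cannot be told apart. Among the 20 genes that were lower in cardiomyocytes in both media, 14 had their highest serum-free cardiomyocyte value in replicate 2 and 18 their highest phenylephrine cardiomyocyte value in replicate 1, the libraries that stand apart. Of the 7 genes higher in cardiomyocytes in both media, 2 and 4 were highest there. The share of all genes with their highest value there was not counted, so these counts stand without a background. The part of RNA of fibroblasts, leukocytes, endothelial, epicardial or mural cells in these cardiomyocyte levels was not tested. Without those 2 libraries 31 of 36 differed in serum-free medium, 11 higher and 20 lower, against 71.0% of all genes, 36.3% higher and 34.7% lower. With phenylephrine 32 of 36 then differed, 9 higher and 23 lower, against 70.6%, 36.4% higher and 34.1% lower.

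**Figure D1:**
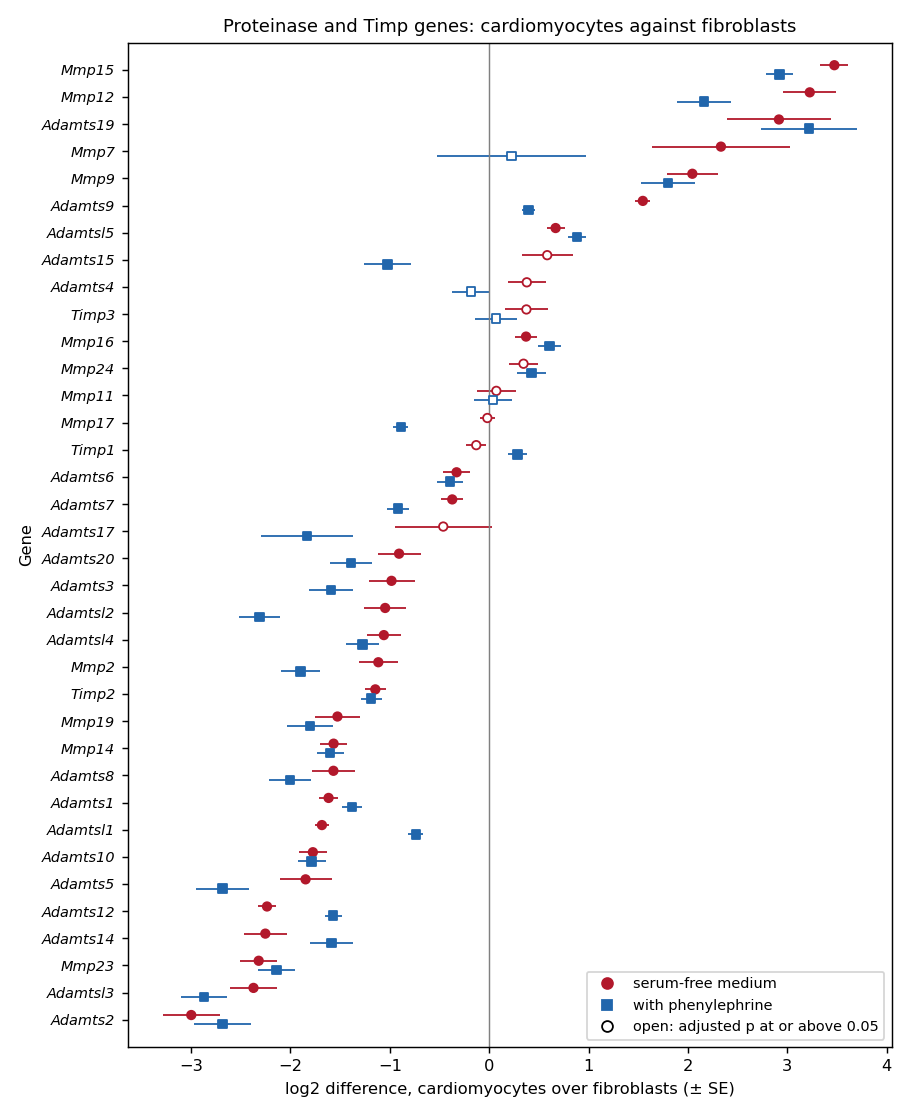
Fitted log2 difference between cardiomyocytes and fibroblasts (x axis, ± SE) for the 36 tested genes (y axis), in serum-free medium (red circles) and with phenylephrine (blue squares); filled symbols have an adjusted p below 0.05. Most symbols lie left of 0, where fibroblasts are higher. Mmp15, Mmp12 and Adamts19 lie furthest to the right in both media, followed by Mmp7 in serum-free medium and Mmp9 with phenylephrine.

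Mmp2, the gelatinase that Mmp14 activates at the cell surface, was lower in cardiomyocyte cultures. It stood at 421, 389 and 535 CPM in serum-free cardiomyocytes, 488, 317 and 332 CPM in phenylephrine cardiomyocytes, 866 and 1078 CPM in serum-free fibroblasts and 1428 and 1398 CPM in phenylephrine fibroblasts. The ranges of the cell types did not overlap in either medium. The log2 difference was -1.12 ± 0.20 in serum-free medium (adjusted p = 0.000756) and -1.900 ± 0.20 with phenylephrine (adjusted p = 2.29e-05). Mmp9, the second gelatinase and an enzyme abundant in myeloid cells, went the other way at much smaller counts. Its values were 4.34, 6.48 and 6.08 CPM in serum-free cardiomyocytes, 5.14, 3.42 and 4.34 CPM in phenylephrine cardiomyocytes, 1.16 and 1.56 CPM in serum-free fibroblasts and 1.25 and 1.22 CPM in phenylephrine fibroblasts. All 6 cardiomyocyte libraries lay above all 4 fibroblast libraries, with log2 differences of 2.04 ± 0.26 (adjusted p = 2.67e-05) and 1.798 ± 0.27 (adjusted p = 0.000118).

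The 5 membrane-type Mmps split by cell type. Mmp14, the membrane-bound collagenase, was lower in cardiomyocytes, at 259, 322 and 311 CPM in serum-free cardiomyocytes, 334, 252 and 254 CPM in phenylephrine cardiomyocytes, 806 and 955 CPM in serum-free fibroblasts and 862 and 836 CPM in phenylephrine fibroblasts. The lowest fibroblast library was above the highest cardiomyocyte library, and the log2 differences were -1.57 ± 0.13 (adjusted p = 1.78e-06) and -1.601 ± 0.13 (adjusted p = 1.68e-06). Mmp15, a close relative of Mmp14, showed the reverse. Its levels were 62.2, 56.5 and 59.3 CPM in serum-free cardiomyocytes, 42.7, 52.6 and 56.8 CPM in phenylephrine cardiomyocytes, 4.91 and 5.78 CPM in serum-free fibroblasts and 6.93 and 6.47 CPM in phenylephrine fibroblasts. Cardiomyocytes were 11.1-fold higher in serum-free medium (log2 3.47 ± 0.14, adjusted p = 1.68e-09) and 7.57-fold higher with phenylephrine (log2 2.92 ± 0.14, adjusted p = 5.65e-09). In serum-free medium this was the largest difference of the 36 genes in either direction. The endothelial markers Kdr and Cdh5 and the epicardial markers Msln and Upk1b were higher in the same cultures, by 6.67 ± 0.31, 5.72 ± 0.56, 5.57 ± 0.26 and 6.11 ± 0.17 in serum-free medium. Tek was lower in both media and Upk3b was lower with phenylephrine. Summed endothelial markers stood at 44.1, 50.4 and 42.6 CPM in serum-free cardiomyocytes against 26.1 and 20.9 CPM in serum-free fibroblasts. Summed epicardial markers stood at 109, 116 and 102 CPM against 41.7 and 28.4 CPM. The part of endothelial and epicardial RNA in the levels of Mmp15, Adamts19 and Adamts9 was not tested. Mmp16, another membrane-anchored member, stood at 13.1, 14.9 and 15.01 CPM in serum-free cardiomyocytes, 18.8, 16.8 and 16.4 CPM in phenylephrine cardiomyocytes, 10.4 and 11.8 CPM in serum-free fibroblasts and 11.98 and 10.8 CPM in phenylephrine fibroblasts. Its groups did not overlap between cell types, but the differences were small, at 0.37 ± 0.11 (adjusted p = 0.0130) and 0.60 ± 0.11 (adjusted p = 0.000607), and the first was lost without serum-free fibroblast replicate 1 (log2 0.28, adjusted p = 0.116). Mmp24 passed only with phenylephrine, at 0.43 ± 0.15 (adjusted p = 0.0236, against 0.0545 in serum-free medium). That call was lost without phenylephrine cardiomyocyte replicate 1 or 3 or either phenylephrine fibroblast library, with adjusted p between 0.0550 and 0.101. Mmp17, which is held at the membrane by a lipid anchor, is described with phenylephrine below.

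Mmp23, an Mmp that is cut from the membrane as it matures, and Mmp19, a basement membrane proteinase, were lower in cardiomyocytes. Mmp23 stood at 38.5, 56.1 and 41.5 CPM in serum-free cardiomyocytes, 66.2, 46.4 and 45.02 CPM in phenylephrine cardiomyocytes, 227 and 225 CPM in serum-free fibroblasts and 236 and 228 CPM in phenylephrine fibroblasts. The highest cardiomyocyte library, phenylephrine replicate 1, was still below the lowest fibroblast library. The log2 differences were -2.32 ± 0.19 (adjusted p = 4.29e-06) and -2.14 ± 0.18 (adjusted p = 7.79e-06). Mmp19 had group means of 87.3 ± 5.87 and 93.9 ± 1.59 CPM in fibroblasts (SD, n = 2) and of 30.3 ± 3.81 and 26.95 ± 9.72 CPM in cardiomyocytes (SD, n = 3), without and with phenylephrine. Its log2 differences were -1.53 ± 0.23 and -1.802 ± 0.23. Mmp11, which furin activates inside the cell, passed in neither medium, with means between 6.77 and 8.403 CPM in the 4 groups and log2 differences of 0.071 ± 0.20 and 0.036 ± 0.19.

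Mmp12, the macrophage metalloelastase, was higher in cardiomyocyte cultures. It stood at 61.9, 73.7 and 82.02 CPM in serum-free cardiomyocytes, 42.5, 26.8 and 26.8 CPM in phenylephrine cardiomyocytes, 6.17 and 9.38 CPM in serum-free fibroblasts and 7.19 and 7.13 CPM in phenylephrine fibroblasts. All cardiomyocyte libraries were above all fibroblast libraries, and the 3 serum-free cardiomyocyte libraries were above the 3 with phenylephrine. Against fibroblasts the log2 difference was 3.22 ± 0.27 in serum-free medium (adjusted p = 5.70e-06) and 2.16 ± 0.27 with phenylephrine (adjusted p = 9.72e-05). All 10 leukocyte markers (Ptprc, Cd68, Csf1r, Adgre1, Cd14, Lyz2, Fcer1g, Itgam, C1qa, C1qb) were also higher in serum-free cardiomyocytes than in serum-free fibroblasts, by a median log2 of 3.30, and 9 of the 10 with phenylephrine, by a median of 2.49. Their summed level was 147, 180 and 170 CPM in serum-free and 144, 119 and 120 CPM in phenylephrine cardiomyocytes. The part of leukocyte RNA in the Mmp12 and Mmp9 levels was not tested. Mmp7, the matrilysin, followed the same direction near the limit of the counts. Its levels were 1.11, 0.482 and 1.15 CPM in serum-free cardiomyocytes, 0.530, 0.217 and 0.289 CPM in phenylephrine cardiomyocytes, 0.152 and 0.208 CPM in serum-free fibroblasts and 0.521 and 0.0553 CPM in phenylephrine fibroblasts. The serum-free difference was 2.33 ± 0.69 (adjusted p = 0.0107), which did not pass without serum-free fibroblast replicate 1 (adjusted p = 0.0747), and the difference with phenylephrine was 0.23 ± 0.75 (adjusted p = 0.806).

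Promoters of these genes are shown because Mmp12 shares short promoter strings with some near neighbours on the chromosome that had few or no counts here. RefSeq promoters of the rat build GRCr8 were found for 38 of the 49 genes, and the 250 bases before the start were searched for 3 exact strings. TGAGTCA, the binding site of AP-1 factors, was counted on both strands, TATAAA, the TATA box, on the gene's strand, and GGAATG, the binding site of TEAD factors, on both strands; no string overlaps another in the stretches shown. TGAGTCA was in 6 of 38 (15.79%), against 4.05% of all 33469 promoters. TATAAA was in 10 of 38 (26.32%), against 8.06%, and GGAATG in 3 of 38 (7.89%), against 12.06%. The same 6 genes held both TGAGTCA and TATAAA, a combination found in 134 promoters (0.4%). All 6 lie on the plus strand of chromosome 8, from Mmp13 at chr8:12782729-12782828 to Mmp7 at chr8:13132943-13133042. The genes Mmp8, Mmp20 and Mmp27 lie on the same strand of that chromosome without TGAGTCA, and of these Mmp20 alone held TATAAA. The last 100 bases before the start are given 5′ to 3′, with the AP-1 string and the nearest TATAAA in capitals; in Mmp13 the AP-1 string reads on the minus strand and appears as its reverse complement.
Mmp12 (chr8:12866552-12866651): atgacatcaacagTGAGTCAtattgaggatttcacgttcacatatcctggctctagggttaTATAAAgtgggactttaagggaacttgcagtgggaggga
Mmp3 (chr8:12925181-12925280): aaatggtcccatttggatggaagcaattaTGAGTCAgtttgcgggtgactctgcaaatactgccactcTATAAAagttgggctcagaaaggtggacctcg
Mmp1 (chr8:12943353-12943452): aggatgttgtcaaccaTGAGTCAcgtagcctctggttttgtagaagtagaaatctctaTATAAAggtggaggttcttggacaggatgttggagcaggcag
Mmp10 (chr8:12974607-12974706): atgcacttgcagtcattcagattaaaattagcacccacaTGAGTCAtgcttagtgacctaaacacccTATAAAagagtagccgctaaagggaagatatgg
Mmp13 (chr8:12782729-12782828): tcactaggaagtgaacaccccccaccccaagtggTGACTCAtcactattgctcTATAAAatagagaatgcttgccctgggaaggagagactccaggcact
Mmp7 (chr8:13132943-13133042): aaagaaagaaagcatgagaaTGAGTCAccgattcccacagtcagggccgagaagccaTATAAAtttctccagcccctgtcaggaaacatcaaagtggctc
The AP-1 string began 87 bases before the start in Mmp12, 71 in Mmp3, 84 in Mmp1, 61 in Mmp10, 66 in Mmp13 and 80 in Mmp7. The TATA string began 39, 32, 42, 33, 47 and 43 bases before it, in the same order. Over all 10 libraries Mmp12 had group means of 7.16 to 72.6 CPM, Mmp7 stayed at or below 1.15 CPM, Mmp3, Mmp1 and Mmp13 stayed at or below 0.255 CPM and Mmp10 had no count. A shared string is a description of these letters and says nothing of which factors were bound in the cells.

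The 4 Timps differed among themselves. Timp2, which inhibits Mmps and also takes part in the activation of Mmp2 by Mmp14, was lower in cardiomyocytes. Its levels were 242, 273 and 252 CPM in serum-free cardiomyocytes, 322, 242 and 269.9 CPM in phenylephrine cardiomyocytes, 537 and 596 CPM in serum-free fibroblasts and 632 and 635 CPM in phenylephrine fibroblasts. The cell types did not overlap, with log2 differences of -1.15 ± 0.11 (adjusted p = 1.90e-06) and -1.19 ± 0.11 (adjusted p = 1.55e-06). Mmp2, Mmp14 and Timp2, whose proteins form a complex at the cell surface, were thus all lower in cardiomyocytes in both media. Timp3, the matrix-bound inhibitor, overlapped between the cell types in both media. It stood at 76.3, 114 and 88.4 CPM in serum-free cardiomyocytes, 125, 84.3 and 80.7 CPM in phenylephrine cardiomyocytes, 77.2 and 66.3 CPM in serum-free fibroblasts and 90.7 and 93.6 CPM in phenylephrine fibroblasts. Its log2 differences were 0.37 ± 0.22 (adjusted p = 0.162) and 0.067 ± 0.22 (adjusted p = 0.801). The highest values were in the 2 cardiomyocyte libraries that stand apart, and without them the serum-free value passed as higher in cardiomyocytes, at 0.19 ± 0.080 (adjusted p = 0.0411), and the value with phenylephrine was -0.16 ± 0.079 (adjusted p = 0.0775). Timp4, known for its abundance in adult heart, was almost without counts, at 0.145, 0.107 and 0.255 CPM in serum-free cardiomyocytes, 0.106, 0.163 and 0.145 CPM in phenylephrine cardiomyocytes, 0 and 0.104 CPM in serum-free fibroblasts and 0 and 0.111 CPM in phenylephrine fibroblasts. Timp1, the soluble inhibitor that is induced in many injured tissues, is given with phenylephrine below.

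Among the Adamts proteinases that cut versican and aggrecan, 4 of 7 were lower and 1 was higher in serum-free cardiomyocytes, and 5 were lower and 1 higher with phenylephrine. Adamts1 stood at 90.7, 96.3 and 83.9 CPM in serum-free cardiomyocytes, 78.7, 69.1 and 62.8 CPM in phenylephrine cardiomyocytes, 300.1 and 254 CPM in serum-free fibroblasts and 184 and 182 CPM in phenylephrine fibroblasts. Every fibroblast library was above every cardiomyocyte library, by log2 differences of -1.62 ± 0.10 (adjusted p = 6.48e-08) and -1.38 ± 0.10 (adjusted p = 2.85e-07) in cardiomyocytes against fibroblasts. Adamts5, an aggrecanase, was at 20.4, 27.8 and 20.1 CPM in serum-free cardiomyocytes, 25.5, 12.98 and 12.8 CPM in phenylephrine cardiomyocytes, 78.9 and 84.7 CPM in serum-free fibroblasts and 106 and 113 CPM in phenylephrine fibroblasts. The cell types did not overlap (log2 -1.85 ± 0.26 and -2.68 ± 0.27, adjusted p = 0.000250 and 2.72e-05), and the 2 cardiomyocyte libraries that stand apart were the highest of their groups. Adamts8 had levels of 21.8, 26.9 and 25.001 CPM in serum-free cardiomyocytes, 27.95, 19.1 and 21.6 CPM in phenylephrine cardiomyocytes, 55.04 and 90.7 CPM in serum-free fibroblasts and 88.6 and 95.2 CPM in phenylephrine fibroblasts, with log2 differences of -1.57 ± 0.21 (adjusted p = 0.000166) and -2.005 ± 0.21 (adjusted p = 3.56e-05). Adamts20 was lower in cardiomyocytes at group means of 4.802 and 4.71 CPM against 8.93 and 12.3 CPM, and Adamts4 passed in neither medium, with means between 4.09 and 5.405 CPM. Adamts9 alone of the 7 was higher in cardiomyocytes in both media, and its levels follow with phenylephrine.

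The 3 procollagen N-proteinases, Adamts2, Adamts3 and Adamts14, were lower in cardiomyocytes in both media. Adamts2, which processes fibrillar procollagens in skin and other tissues, stood at 40.9, 71.8 and 47.1 CPM in serum-free cardiomyocytes, 99.02, 62.7 and 63.9 CPM in phenylephrine cardiomyocytes, 340.1 and 509.8 CPM in serum-free fibroblasts and 484 and 482 CPM in phenylephrine fibroblasts. No cardiomyocyte library reached 100 CPM and no fibroblast library was below 340.1 CPM. The log2 differences were -2.998 ± 0.29 (adjusted p = 1.96e-05) and -2.68 ± 0.28 (adjusted p = 4.01e-05), the first being the most negative of the 36 genes in serum-free medium. Adamts14 was at 7.91, 14.3 and 8.29 CPM in serum-free cardiomyocytes, 15.3, 12.8 and 11.6 CPM in phenylephrine cardiomyocytes, 50.8 and 45.3 CPM in serum-free fibroblasts and 41.8 and 37.8 CPM in phenylephrine fibroblasts. It differed by -2.25 ± 0.22 (adjusted p = 1.06e-05) and -1.59 ± 0.21 (adjusted p = 0.000124), again without overlap. Adamts3 had means of 2.52 and 2.86 CPM in cardiomyocytes and 5.02 and 8.62 CPM in fibroblasts, and its serum-free difference of -0.98 ± 0.23 did not pass without serum-free fibroblast replicate 2 (log2 -0.55, adjusted p = 0.0657). Their substrates Col1a1 and Col1a2, the chains of type I procollagen, were lower in cardiomyocytes too, by log2 -2.46 ± 0.28 and -2.58 ± 0.39 in serum-free medium. Means in serum-free cardiomyocytes and fibroblasts were 5538 and 30458 CPM for Col1a1, but 2.12 and 12.5 CPM for Col1a2. The reason for the low Col1a2 counts was not tested.

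Adamts7 and Adamts12, which cut cartilage oligomeric matrix protein, were lower in cardiomyocytes in both media. For Adamts7 the differences were small in serum-free medium, -0.37 ± 0.11 (adjusted p = 0.0124), and that call was lost without serum-free fibroblast replicate 1 (log2 -0.25, adjusted p = 0.141). With phenylephrine the Adamts7 difference was -0.92 ± 0.11 (adjusted p = 2.82e-05). Of the remaining Adamts genes, Adamts19, a gene linked to heart valve disease in humans and mice, was higher in cardiomyocytes. It stood at 5.21, 16.3 and 7.87 CPM in serum-free cardiomyocytes, 20.2, 17.5 and 16.3 CPM in phenylephrine cardiomyocytes, 1.37 and 1.198 CPM in serum-free fibroblasts and 2.14 and 1.71 CPM in phenylephrine fibroblasts. Replicate 1 of the serum-free cardiomyocytes, the lowest, was still above every fibroblast library. The log2 difference was 2.91 ± 0.53 in serum-free medium (adjusted p = 0.00105) and 3.21 ± 0.48 with phenylephrine (adjusted p = 0.000354), the largest positive difference of the 36 genes in that medium. Adamts10, which binds fibrillin microfibrils, was lower in cardiomyocytes at means of 60.04 and 71.7 CPM against 205 and 247 CPM. Its relative Adamts6 differed by -0.33 ± 0.13 (adjusted p = 0.0442) and -0.39 ± 0.13 (adjusted p = 0.0192). Leaving out any of several libraries ended these calls, with log2 values of -0.39 to -0.26 and -0.53 to -0.33 as libraries were left out in turn. The serum-free call was also lost with DESeq2 (adjusted p = 0.0571), no filter on low counts, a replicate block and library size alone. In all it was lost in 10 of 17 alternatives. Adamts17 passed only with phenylephrine, at 0.497 against 1.802 CPM.

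The Adamts-like genes all differed between the cell types in both media, 4 of 5 lower and Adamtsl5 higher in cardiomyocytes. Adamtsl3 stood at 31.7, 45.3 and 32.99 CPM in serum-free cardiomyocytes, 63.6, 37.2 and 37.6 CPM in phenylephrine cardiomyocytes, 182 and 197 CPM in serum-free fibroblasts and 334 and 340.3 CPM in phenylephrine fibroblasts. The log2 differences were -2.37 ± 0.24 (adjusted p = 2.42e-05) and -2.87 ± 0.23 (adjusted p = 7.39e-06). Phenylephrine cardiomyocyte replicate 1 was the highest of the cardiomyocyte libraries and lay well below the fibroblasts. Adamtsl4, which binds fibrillin, had means of 25.2 and 27.1 CPM in cardiomyocytes and 52.6 and 65.6 CPM in fibroblasts. Adamtsl5 was at 30.6, 27.3 and 26.7 CPM in serum-free cardiomyocytes, 27.8, 28.2 and 28.1 CPM in phenylephrine cardiomyocytes, 16.5 and 19.01 CPM in serum-free fibroblasts and 15.6 and 14.8 CPM in phenylephrine fibroblasts. Every cardiomyocyte library was above every fibroblast library, with log2 differences of 0.67 ± 0.091 (adjusted p = 5.03e-05) and 0.88 ± 0.093 (adjusted p = 6.59e-06).

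The 13 genes that were not tested had almost no counts. Mmp10, Mmp20, Mmp27 and Mmp28 had none. Adamts13, the proteinase that cuts von Willebrand factor, had 8, 5, 3 and 3 counts summed over the libraries of serum-free cardiomyocytes, phenylephrine cardiomyocytes, serum-free fibroblasts and phenylephrine fibroblasts. Adamts18, Mmp1 and Mmp21 had at most 3 counts in any group. Mmp3, a stromelysin, stood at 0.145, 0.161 and 0.255 CPM in serum-free cardiomyocytes, 0.159, 0.0543 and 0.0482 CPM in phenylephrine cardiomyocytes, 0 and 0 CPM in serum-free fibroblasts and 0 and 0 CPM in phenylephrine fibroblasts. Mmp3 counts were found in all 6 cardiomyocyte libraries and in no fibroblast library. Its summed counts in serum-free medium were 12 against 0, a ratio of 2.48 to a floor of 3 counts over the fibroblast group. Mmp8, the neutrophil collagenase, had 20 counts in serum-free cardiomyocytes against 0 in serum-free fibroblasts, a ratio of 4.13 to the same floor. With phenylephrine it had 16 against 1, a ratio of 10.3 with an exact 95% counting interval of 1.598 to 431. The neutrophil markers S100a9 and Elane had no count in any library, S100a8 at most 1 count and Csf3r at most 0.434 CPM. Mmp13, the third collagenase, had 6 counts against 0 in serum-free medium, a ratio of 1.24 to the same floor. In the edgeR test with no filter on low counts, Mmp13 did not pass in serum-free medium (adjusted p = 0.116). In that fit Mmp3 (adjusted p = 0.0156) and Mmp8 (0.00500) passed as higher in serum-free cardiomyocytes. Mmp8 (0.0370) and Adamts16 (0.00582) passed as higher with phenylephrine, and Mmp3 did not (0.106). None of the other untested genes with counts passed between cell types, and all these values rest on few counts. Adamts16 had 9 and 27 counts in serum-free and phenylephrine cardiomyocytes and 2 in each fibroblast group, and with phenylephrine its ratio between cell types was 8.68 (interval 2.18 to 75.3). Timp4 had 11 counts against 2 in serum-free medium, a ratio of 3.40 (interval 0.743 to 31.6). The floor ratios leave out the counting error of the cardiomyocyte sum, and the intervals cover counting error only.

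In cardiomyocytes 2 of 36 passed, Timp1 higher and Mmp12 lower, where 3.63% of all genes did, 1.79% higher and 1.84% lower. In fibroblasts 7 of 36 passed, 4 higher (Adamts15, Adamtsl2, Adamts9, Mmp17) and 3 lower (Adamts1, Adamts12, Adamtsl1), where 3.83% of all genes did, 2.06% higher and 1.77% lower. The median log2 response of the 36 was 0.028 in cardiomyocytes and 0.26 in fibroblasts, where all genes had medians of -0.0013 and -0.0028. The size of the cardiomyocyte count depended on single libraries: it was 0 without serum-free replicate 1 or phenylephrine replicate 2, 9 without serum-free replicate 2, 6 without phenylephrine replicate 1 and 1 without serum-free replicate 3, phenylephrine replicate 3 or either phenylephrine fibroblast library. Without the 2 libraries that stand apart it was 14, 6 higher and 8 lower, where 25.3% of all genes passed, 13.2% higher and 12.1% lower. For the fits with 1 library left out the share of all genes was not counted.

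**Figure D2:**
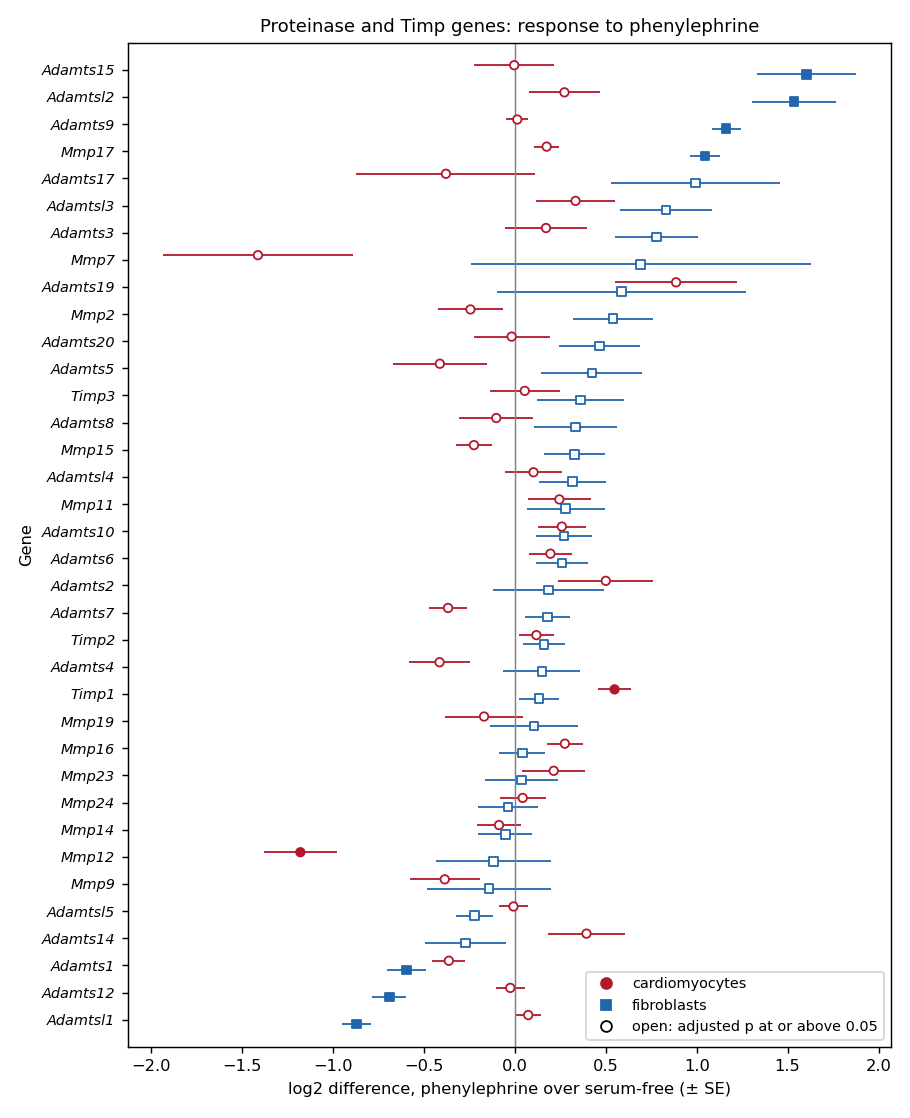
Fitted log2 response to phenylephrine (x axis, ± SE) for the 36 tested genes (y axis), in cardiomyocytes (red circles) and fibroblasts (blue squares); filled symbols have an adjusted p below 0.05. In fibroblasts Adamts15, Adamtsl2, Adamts9 and Mmp17 lie above 1 and Adamts1, Adamts12 and Adamtsl1 lie below -0.5, while in cardiomyocytes the filled symbols are Timp1 and Mmp12.

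Timp1 rose with phenylephrine in cardiomyocytes. Its levels were 37.96, 45.4 and 46.7 CPM in serum-free cardiomyocytes, 69.2, 61.2 and 59.97 CPM in phenylephrine cardiomyocytes, 48.7 and 46.3 CPM in serum-free fibroblasts and 49.1 and 55.04 CPM in phenylephrine fibroblasts. The 3 phenylephrine cardiomyocyte libraries were above the 3 serum-free ones, and above all 4 fibroblast libraries. The response was 0.55 ± 0.088 in cardiomyocytes (1.46-fold, adjusted p = 0.0140) and 0.13 ± 0.11 in fibroblasts (adjusted p = 0.579). The test of the difference between these responses gave 0.42 ± 0.14 (adjusted p = 0.134), so with all libraries the response was not shown to differ between cell types. That difference passed in 1 of 16 alternatives, the fit without the 2 libraries that stand apart (0.39 ± 0.12, adjusted p = 0.0391). The cardiomyocyte call was lost without serum-free replicate 1 (adjusted p = 0.0564) or phenylephrine replicate 2 (adjusted p = 0.0630) and in a fit of the cardiomyocyte libraries alone (adjusted p = 0.0522), and was 0.52 ± 0.087 (adjusted p = 0.000370) without the 2 libraries that stand apart. Between cell types Timp1 did not pass in serum-free medium (log2 -0.13 ± 0.10, adjusted p = 0.263) and was higher in cardiomyocytes with phenylephrine (0.28 ± 0.10, adjusted p = 0.0248). That last call was lost without phenylephrine cardiomyocyte replicate 1 (adjusted p = 0.0684) or phenylephrine fibroblast replicate 1 (adjusted p = 0.204). Timp1 lies within the Syn1 gene on the opposite strand, and whether reads were counted by strand is not stated. The part of Syn1 reads in the Timp1 counts was not tested. Timp2 and Timp3 did not pass in cardiomyocytes, with responses of 0.12 ± 0.10 and 0.054 ± 0.19.

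Mmp12 fell with phenylephrine in cardiomyocytes, where the levels printed above gave group means of 72.6 ± 10.1 and 32.1 ± 9.07 CPM (SD, n = 3). The response was -1.18 ± 0.20 (adjusted p = 0.0236), with no overlap, and phenylephrine replicate 1 was the highest of its group. In fibroblasts, at means of 7.77 and 7.16 CPM, it was -0.12 ± 0.32 (adjusted p = 0.898), and the difference between the responses was -1.06 ± 0.37 (adjusted p = 0.168). That difference did not pass in 13 of 16 alternatives either. It passed with DESeq2 (adjusted p = 0.0311), without phenylephrine cardiomyocyte replicate 1 (0.0187) and without the 2 libraries that stand apart (-1.31 ± 0.30, adjusted p = 0.0202). The cardiomyocyte call was lost without serum-free replicate 1 (adjusted p = 0.0698) or 3 (0.107), without phenylephrine replicate 2 (0.0971) or 3 (0.0919), without either phenylephrine fibroblast library (0.0522 and 0.0523) and in a fit of the cardiomyocyte libraries alone (adjusted p = 0.0520). Without the 2 libraries that stand apart it was -1.42 ± 0.16 (adjusted p = 0.000429). Of the 10 leukocyte markers, Fcer1g (-0.59 ± 0.13, adjusted p = 0.0373) and Ptprc (-0.62 ± 0.15, adjusted p = 0.0468) fell in the same libraries, the other 8 did not pass, and the median of the 10 was -0.46. Cd68 had a value of -0.81 ± 0.23 (adjusted p = 0.0925) and Lyz2 of 0.11 ± 0.17 (adjusted p = 0.749). Without the 2 libraries 6 of the 10 were lower and Adgre1 was higher, Cd68 among the lower at -1.17 ± 0.16 (adjusted p = 0.000632). The part of the leukocyte markers in the fall of Mmp12 was not tested. Mmp9 and Mmp7 did not pass, at -0.39 ± 0.19 and -1.41 ± 0.52.

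**Figure D3:**
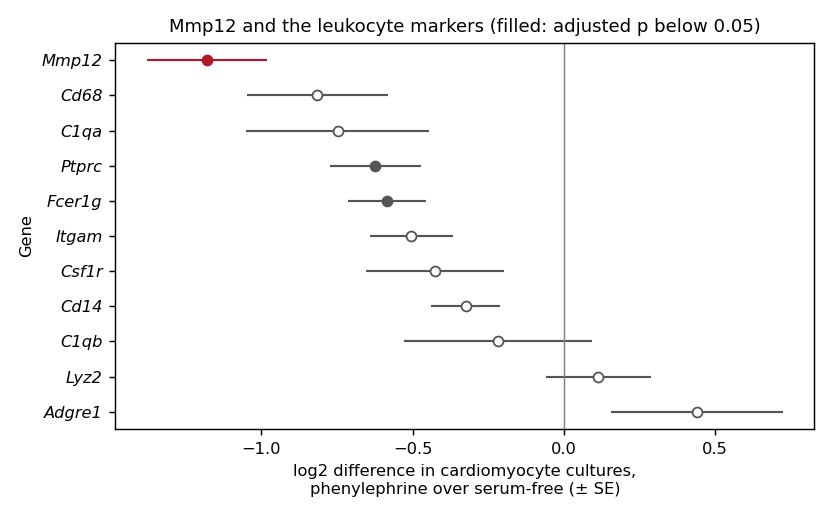
Fitted log2 response to phenylephrine in cardiomyocyte cultures (x axis, ± SE) for Mmp12 (red) and the 10 leukocyte markers (grey, y axis); filled symbols have an adjusted p below 0.05. Mmp12 lies furthest left at -1.18, Ptprc and Fcer1g are filled at about -0.6, and Lyz2 and Adgre1 lie right of 0.

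Adamts1 had the smallest adjusted p of the cardiomyocyte responses that did not pass, at -0.36 ± 0.091 (adjusted p = 0.0537), followed by Adamts7 at -0.37 ± 0.10 (adjusted p = 0.0733). In both genes the 3 phenylephrine libraries lay below the 3 serum-free ones, and DESeq2 called both (adjusted p = 0.0182 and 0.0373). Mmp2, Mmp14 and Adamts5 had responses of -0.24 ± 0.18, -0.087 ± 0.12 and -0.41 ± 0.26 in cardiomyocytes. Without the 2 libraries that stand apart, Adamts5 (-0.65 ± 0.086, adjusted p = 2.02e-05) and Mmp2 (-0.56 ± 0.13, adjusted p = 0.0184) passed as lower. Adamts19 (1.36 ± 0.15, adjusted p = 3.22e-06) and Adamts14 (0.59 ± 0.11, adjusted p = 0.000753) passed as higher there, where with all libraries they had 0.89 ± 0.34 (adjusted p = 0.168) and 0.39 ± 0.21 (adjusted p = 0.314).

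In fibroblasts, 2 versican-cutting Adamts genes, an Adamts-like gene and a membrane-type Mmp rose. Adamts9, at 52.95, 52.8 and 52.6 CPM in serum-free cardiomyocytes, 50.8, 52.96 and 55.97 CPM in phenylephrine cardiomyocytes, 18.9 and 17.3 CPM in serum-free fibroblasts and 41.4 and 39.6 CPM in phenylephrine fibroblasts, rose by 1.16 ± 0.079 in fibroblasts (2.24-fold, adjusted p = 2.87e-05) and gave 0.013 ± 0.060 in cardiomyocytes (adjusted p = 0.925). Its cardiomyocyte levels lay between 50.8 and 56.0 CPM in all 6 libraries, above every fibroblast library in either medium. Adamts9 was accordingly higher in cardiomyocytes by 1.54 ± 0.074 in serum-free medium and by 0.40 ± 0.069 with phenylephrine. Mmp17 stood at 31.4, 34.3 and 29.3 CPM in serum-free cardiomyocytes, 36.6, 34.3 and 36.3 CPM in phenylephrine cardiomyocytes, 32.3 and 31.9 CPM in serum-free fibroblasts and 65.7 and 66.7 CPM in phenylephrine fibroblasts. It rose by 1.05 ± 0.083 in fibroblasts (2.06-fold, adjusted p = 7.99e-05) and gave 0.17 ± 0.068 in cardiomyocytes (adjusted p = 0.163). The cell types overlapped in serum-free medium (-0.020 ± 0.077, adjusted p = 0.836), and cardiomyocytes were lower with phenylephrine (-0.89 ± 0.074, adjusted p = 8.58e-07).

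Adamts15, also a versican and aggrecan proteinase, was at 23.005, 31.1 and 26.3 CPM in serum-free cardiomyocytes, 29.3, 24.99 and 25.8 CPM in phenylephrine cardiomyocytes, 11.7 and 24.1 CPM in serum-free fibroblasts and 52.4 and 56.3 CPM in phenylephrine fibroblasts. The serum-free fibroblast libraries lay far apart, and the phenylephrine fibroblasts were above all other libraries. The response was 1.603 ± 0.27 in fibroblasts (adjusted p = 0.0162; 1.18 without serum-free fibroblast replicate 1 and 2.21 without replicate 2) and -0.0036 ± 0.22 in cardiomyocytes (adjusted p = 0.995). Adamtsl2, a binder of fibrillin and of latent TGF-beta binding protein that is mutated in a human short-stature and heart valve syndrome, had levels of 39.4, 32.5 and 40.5 CPM in serum-free cardiomyocytes, 38.5, 50.95 and 46.7 CPM in phenylephrine cardiomyocytes, 57.1 and 98.2 CPM in serum-free fibroblasts and 229.7 and 220.2 CPM in phenylephrine fibroblasts. Its response was 1.54 ± 0.23 in fibroblasts (2.899-fold, adjusted p = 0.00965) and 0.27 ± 0.20 in cardiomyocytes (adjusted p = 0.454). Both genes' fibroblast calls were lost without either phenylephrine fibroblast library (adjusted p = 0.0988 and 0.117 for Adamts15, 0.0778 and 0.0628 for Adamtsl2) and in a fit of the fibroblast libraries alone (adjusted p = 0.149 and 0.117). Cardiomyocytes were lower than fibroblasts for Adamtsl2 in both media (-1.05 ± 0.21, or -0.61 without serum-free fibroblast replicate 2, and -2.31 ± 0.21) and for Adamts15 with phenylephrine alone (-1.02 ± 0.24, adjusted p = 0.00443, against 0.58 ± 0.26, adjusted p = 0.0727, in serum-free medium).

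**Figure D4:**
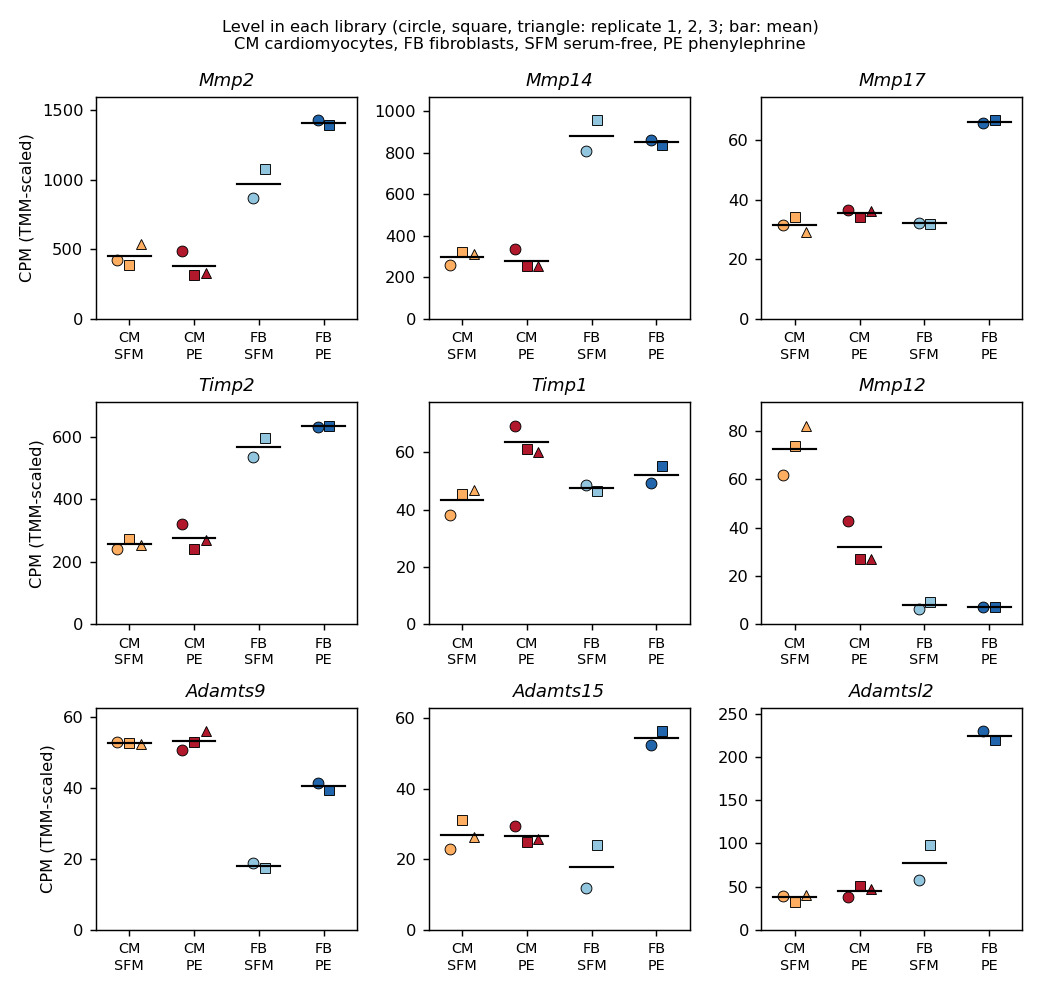
Level of 9 genes in each library (y axis, CPM from 0) by group (x axis: CM cardiomyocytes, FB fibroblasts, SFM serum-free medium, PE phenylephrine); circles, squares and triangles are replicates 1, 2 and 3 and bars are group means. Mmp2, Mmp14 and Timp2 lie higher in fibroblasts, Mmp12 lies higher in cardiomyocytes, and Mmp17, Adamts9, Adamts15 and Adamtsl2 lie higher in the phenylephrine than in the serum-free fibroblasts.

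The 3 genes that fell in fibroblasts began from higher levels there than in cardiomyocytes. Adamtsl1 stood at 17.6, 17.7 and 19.6 CPM in serum-free cardiomyocytes, 18.9, 19.01 and 19.9 CPM in phenylephrine cardiomyocytes, 60.6 and 57.1 CPM in serum-free fibroblasts and 32.04 and 32.3 CPM in phenylephrine fibroblasts. It fell by -0.87 ± 0.080 on the log2 scale in fibroblasts (adjusted p = 0.000174) and gave 0.073 ± 0.070 in cardiomyocytes (adjusted p = 0.579). Phenylephrine fibroblasts remained above all 6 cardiomyocyte libraries. Adamts12 had levels of 39.1, 43.03 and 42.9 CPM in serum-free cardiomyocytes, 43.2, 39.3 and 40.3 CPM in phenylephrine cardiomyocytes, 178 and 215 CPM in serum-free fibroblasts and 116 and 127 CPM in phenylephrine fibroblasts, with responses of -0.69 ± 0.093 in fibroblasts (adjusted p = 0.00228) and -0.025 ± 0.081 in cardiomyocytes (adjusted p = 0.890). Its difference between cell types was -2.24 ± 0.086 in serum-free medium and -1.57 ± 0.087 with phenylephrine. Adamts1 fell by -0.60 ± 0.11 in fibroblasts (adjusted p = 0.0121), a call lost without serum-free fibroblast replicate 1 (log2 -0.47, adjusted p = 0.124) or either phenylephrine fibroblast library (adjusted p = 0.123 and 0.130). The count of 7 fell to 4 without either phenylephrine fibroblast library. Adamtsl3 had a fibroblast response of 0.83 ± 0.25 that did not pass (adjusted p = 0.124), and passed as higher with DESeq2 (adjusted p = 0.0145) and in a fit of the fibroblast libraries alone (adjusted p = 4.97e-05). Mmp2, Timp3, Adamts5 and Adamts20 had 0.54 ± 0.22, 0.36 ± 0.24, 0.42 ± 0.28 and 0.47 ± 0.22, which did not pass either, and passed as higher in the fit of the fibroblast libraries alone (adjusted p = 0.00841, 0.0173, 0.00419 and 0.0330). Leaving out the 2 cardiomyocyte libraries that stand apart raised the fibroblast count to 14, 10 higher and 4 lower, where 14.9% of all genes passed, 7.47% higher and 7.44% lower. No share of all genes was counted for the fits with 1 library left out.

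The responses themselves differed between cell types for 5 of 36 genes, against 3.25% of all genes, 1.63% with the larger value in cardiomyocytes and 1.62% with the larger value in fibroblasts. For Adamts9 the cardiomyocyte response minus the fibroblast response was -1.15 ± 0.10 (adjusted p = 0.000451), and for Mmp17 it was -0.87 ± 0.11 (adjusted p = 0.00286). For Adamts15 it was -1.61 ± 0.35 (adjusted p = 0.0474), which did not pass without any 1 cardiomyocyte library or either phenylephrine fibroblast library (adjusted p from 0.0510 to 0.167), nor with no filter on low counts (adjusted p = 0.109), nor without the 2 libraries that stand apart (adjusted p = 0.0866). Adamtsl1 and Adamts12 had positive values, 0.94 ± 0.11 (adjusted p = 0.00224) and 0.67 ± 0.12 (adjusted p = 0.0166). The Adamts12 value did not pass without phenylephrine fibroblast replicate 1 (adjusted p = 0.112) or 2 (adjusted p = 0.0644). In all 5 the fibroblast response was the larger in size. Adamtsl2 had -1.26 ± 0.30 (adjusted p = 0.0648). The count was 10 without phenylephrine cardiomyocyte replicate 1, 3 without either phenylephrine fibroblast library, and 16 without the 2 libraries that stand apart, 4 positive and 12 negative, where 19.3% of all genes passed, 10.4% positive and 8.83% negative. The share of all genes was not counted for the fits with 1 library left out. The phenylephrine and cell type comparisons share their libraries.

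Other genes of extracellular proteolysis gave a mixed picture between the cell types. Beside the counts given here and in the next paragraph, 66.1% of all genes were called in serum-free medium, 34.5% higher and 31.7% lower in cardiomyocytes. With phenylephrine 65.0% of all genes were called, 33.7% higher and 31.2% lower. Of 8 activators, plasminogen activators and proprotein convertases, 4 were higher and 3 lower in serum-free cardiomyocytes, and again 4 and 3 with phenylephrine. Plau, the urokinase-type activator, was higher (3.24 ± 0.27), as was Furin, which activates several membrane-type Mmps and Adamts enzymes (0.79 ± 0.078), while Pcsk5 (-2.66 ± 0.15) and Pcsk6 (-1.76 ± 0.11) were lower. Of 8 tested inhibitors and clearance genes, 3 were higher and 4 lower in serum-free medium. With phenylephrine 2 were higher and 4 lower. Reck, a membrane-anchored Mmp inhibitor, differed by -2.09 ± 0.13 (adjusted p = 1.84e-07), Lrp1, an endocytic receptor that clears proteinases, by -2.75 ± 0.20, Serpine2, a serine proteinase inhibitor, by -3.41 ± 0.26, and Spock2, a secreted proteoglycan, by 4.59 ± 0.36.

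Of 9 tested Adam sheddases, 3 were higher and 3 lower in serum-free cardiomyocytes, and 2 and 3 with phenylephrine, with Adam15 (-1.58 ± 0.10) and Adam23 (-1.400 ± 0.15) among the lower. The 2 tested astacins, Bmp1, the procollagen C-proteinase, and Tll1, were lower in both media, by -1.21 ± 0.12 and -1.64 ± 0.15 in serum-free medium. Of 6 lysosomal cathepsins, 4 were higher and 1 was lower in serum-free medium, where Ctss, a cathepsin of antigen-presenting cells, had 3.15 ± 0.30. With phenylephrine 2 were higher and 1 was lower. Of 7 tested substrates, 2 were higher, Vwf and Acan, and 5 lower, in both media, with Vwf, von Willebrand factor and one of the endothelial markers that were higher in cardiomyocyte cultures, at 4.96 ± 0.56 and Fbn1, the fibrillin of microfibrils, at -3.003 ± 0.32 in serum-free medium. With phenylephrine 3 genes of these 6 lists fell in cardiomyocytes, Plau (-0.81 ± 0.18, adjusted p = 0.0381), Ctsz (-0.51 ± 0.10, adjusted p = 0.0263) and Ctsd (-0.38 ± 0.091, adjusted p = 0.0459). The tested genes of each list are counted above, and 1.84% of all genes were called lower in that comparison.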

How the data were processed

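The authors deposited 1 table of raw read counts per gene symbol for 10 libraries, in whole numbers and not normalized. Per the labels' protocols, libraries were TruSeq libraries that shared 1 sequencing lane. The tools were, per the submitters' processing notes, cutadapt, TopHat2 2.0.10, HTSeq 0.6.1p1 and DESeq2 1.6.3, with the build Rnor_6.0. Neither the release of the annotation nor the strand setting is given in the sources used here. Reads that fit more than 1 related gene may be dropped by such counting. A set of 10 further per-library columns was not used.

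Counts were filtered with filterByExpr (minimum count 10, minimum total 15), scaled by trimmed mean of M values and fitted with the robust quasi-likelihood test of edgeR 4.0.16 (R 4.3.3) over all 10 libraries, each group having its own coefficient. Two-sided p-values were adjusted by Benjamini-Hochberg over all 13869 genes tested within each of 5 contrasts and called below 0.05. SE is the log2 value over the square root of F. Sums of 1 to 3 counts were compared by exact binomial intervals at 95%. The script was tested on simulated data. Alternatives were relative log expression factors, no filter, DESeq2 1.42.0, the compared groups alone, a replicate block, each library left out and, chosen after seeing the data, library size alone and the fit without the 2 libraries that stand apart. The genes and lists were chosen with earlier results of these data known. Values in every library are given for 11 preset genes, for genes called in a phenylephrine contrast or its difference, and for up to 6 genes per direction with the largest called cell type differences; up to 4 genes of smallest adjusted p are named per further list, and the values of 1 listed gene are not reported here. RefSeq sequences are of build GRCr8, and all 49 symbols matched its gene table. Levels (CPM) are not scaled to gene length, so they are not compared between genes.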

Additional observations from a re-analysis of the deposited data

Results flagged for a closer look

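For 5 genes the response to phenylephrine differed between cardiomyocytes and fibroblasts by the edgeR test of the difference itself, given as the cardiomyocyte minus the fibroblast log2 response. Adamts15 had -1.61 ± 0.35 (adjusted p = 0.0474), with both phenylephrine fibroblast libraries above both serum-free ones, and did not pass in 11 of the 16 alternatives run. Adamts9 had -1.15 ± 0.10 (adjusted p = 0.000451) and Mmp17 -0.87 ± 0.11 (adjusted p = 0.00286), with the same ordering of the fibroblast libraries. Adamtsl1 had 0.94 ± 0.11 (adjusted p = 0.00224) and Adamts12 0.67 ± 0.12 (adjusted p = 0.0166), with both phenylephrine fibroblast libraries below both serum-free ones.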

How the results depend on the processing

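The cell type counts of 28 and 32 genes stayed within 1.5 times under every alternative run, at 26 to 29 and 29 to 33 when libraries were left out in turn. Of 74 called gene results examined, 59 kept their call in every alternative, 15 lost it in at least 1 and 0 reversed. The count of 2 genes for phenylephrine in cardiomyocytes was 4 with DESeq2, 0 with the compared groups alone, 4 with library size alone, 14 without the 2 libraries that stand apart and 0 to 9 with libraries left out in turn. The count of 7 in fibroblasts was 14 without the 2 libraries and 4 to 8 in turn, and the count of 5 for the difference was 16 without the 2 libraries and 3 to 10 in turn. The cause of these shifts was not tested. The share of all genes called was taken only for the main fit and the fit without the 2 libraries. No other scaling moved the median of all genes by more than 0.1.

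Of 106 uncalled values over the 5 comparisons, 35 changed sign under at least 1 alternative. Among the 11 preset genes these were Timp3 between cell types with phenylephrine (-0.16 without the 2 libraries, -0.16 to 0.18 in turn), and in turn Timp2 (-0.0006 to 0.21) and Timp3 (-0.17 to 0.23) in cardiomyocytes, Mmp12 (-0.39 to 0.21), Mmp14 (-0.17 to 0.074) and Mmp9 (-0.34 to 0.083) in fibroblasts, and Mmp14 (-0.18 to 0.078) and Timp2 (-0.16 to 0.048) for the difference between responses.

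The labels do not say whether replicate numbers pair the libraries. Deviations of same-numbered libraries correlated at -0.224, -0.101 and 0.0198 between the cardiomyocyte groups and at -0.0413 between the fibroblast groups. These values cannot exclude pairing, since 2 cardiomyocyte libraries stand apart and each fibroblast group holds only 2 libraries. With the replicate number as a block the counts were 27, 29, 0, 7 and 4 in the order serum-free cell type, phenylephrine cell type, cardiomyocyte response, fibroblast response and difference. Calls absent under the block were Adamts6 between cell types in both media, Mmp24 and Timp1 between cell types with phenylephrine, Mmp12 and Timp1 in cardiomyocytes and the Adamts15 difference (adjusted p from 0.0507 to 0.115). The fit of the compared groups alone has no separate value for the difference, which uses all 10 libraries.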
